A study of Homo sapiens with 6 samples.

Results

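The urokinase plasminogen activator system was followed here through 6 genes, all of which were listed among the 27192 genes of the count tables: the activators PLAU and PLAT, the receptors PLAUR and PLGRKT, and the serpin inhibitors SERPINE2 and SERPINB2. They were taken by symbol, as the proteases, receptors and inhibitors of pericellular plasminogen activation. Their RNA was compared in U87, an established glioblastoma cell line, with and without knockdown of the long noncoding RNA LINC00152. The 3 siGL2 libraries came from cells given a nonspecific control siRNA, and the 3 siLINC00152 libraries from cells given a mixture of 2 siRNAs against LINC00152. Both groups went through 2 rounds of lipid transfection 24 hours apart and were harvested 24 hours after the last round. The libraries of each group are lettered A, B and C. Nothing in the labels says that the letters stand for separate cultures, and the p-values therefore rest on a spread between libraries that may be technical.

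Urokinase, the product of PLAU, is a secreted serine protease that cuts plasminogen into plasmin, a broad protease that degrades fibrin and matrix proteins and activates other proteases and growth factors. It is secreted as a proenzyme and is held at the cell surface by its receptor, a lipid-anchored protein encoded by PLAUR. Plasminogen itself is held close by, among others, the membrane protein encoded by PLGRKT. Tissue plasminogen activator, encoded by PLAT, makes plasmin mainly on fibrin and, in the brain, on neuronal surfaces. Serpins stop these proteases by a suicide reaction: PAI-2 (SERPINB2) acts on both activators, and protease nexin 1 (SERPINE2) acts on several proteases, thrombin, urokinase and plasmin among them. In glioblastoma, urokinase and its receptor are long known for their link to invasion.

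Total counts ran from 41963120 to 46234763 per library, and 14078 genes had enough counts to be tested. LINC00152 itself stood at 14.98, 14.1 and 16.4 CPM (counts relative to the library total, scaled by TMM) in siGL2 libraries A, B and C and at 2.78, 2.67 and 2.56 CPM after knockdown, a log2 fold change of −2.51 ± 0.09 (SE; edgeR adjusted p = 4.55e-15). Of the 75-base stretches in its transcripts, 20.7% also occur in other genes, MIR4435-2HG among them. How reads that match several genes were counted is not stated in the sources at hand. Among markers of other cell types, PTPRC, a marker of all white blood cells, averaged 0.0462 and 0.0160 CPM in the siGL2 and siLINC00152 groups, and AIF1 and C1QA of microglia had no count in any library. The 6 markers of microglia and macrophages summed to between 22.4 and 23.2 CPM in the siGL2 libraries and to between 13.2 and 14.3 CPM after knockdown, nearly all of it from CSF1R (means of 22.6 and 13.3 CPM). CD14 was scarce and went the other way, from a mean of 0.114 to 0.374 CPM (log2 fold change 1.71 ± 0.43 SE, edgeR adjusted p = 0.00169). ITGAM, at means of 0.0878 and 0.231 CPM, was higher too but too scarce to test. The part of such cells in the results was not tested. The astrocyte markers summed to between 44.3 and 46.9 CPM in control cells and between 32.3 and 36.4 CPM after knockdown, nearly all from SLC1A3, while AQP4 had no count and GFAP averaged 0.154 and 0.104 CPM. Sums of the neuron markers (93.3 to 97.6 against 72.6 to 76.5 CPM) and oligodendrocyte markers (96.7 to 101.8 against 63.4 to 70.8 CPM) were lower after knockdown too, with MOG and MAG at 0. The neuron sums came mostly from SNAP25 (means of 63.7 and 42.75 CPM) and the oligodendrocyte sums nearly all from CNP (99.2 and 67.5 CPM). GAD1 (19.5 and 20.5 CPM) and SYT1 (12.77 and 11.3 CPM) did not pass. The part of these cell types in the results was not tested either. Of the mesenchymal markers, all at over 30 CPM, TNC rose by 0.98 on the log2 scale and FN1 by 0.16, whereas VIM fell by 0.39, CD44 by 0.31, NES by 0.28 and CHI3L1 by 0.61. For FN1 the CPM values of the groups overlapped (edgeR adjusted p = 0.0323).

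All 6 genes had enough counts to be tested, and each passed the test: PLAU, PLGRKT, PLAUR and SERPINB2 fell, and PLAT and SERPINE2 rose. Against this stands a broad background, since 64.3% of all tested genes passed at an adjusted p under 0.05 (edgeR), 32.2% upward and 32.2% downward. Passing the test therefore does not set these genes apart, and the size of the change is what differed among them. PLAU and PLGRKT fell at least 1.5-fold, where 20.0% of tested genes changed that much and 10.4% fell that much. In all 6 genes the CPM values of the groups did not overlap, as in 67.7% of tested genes. The median log2 fold change was −0.39 over the 6 genes and 0.00 over all genes tested (−0.001 before rounding).

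**Figure D1:**
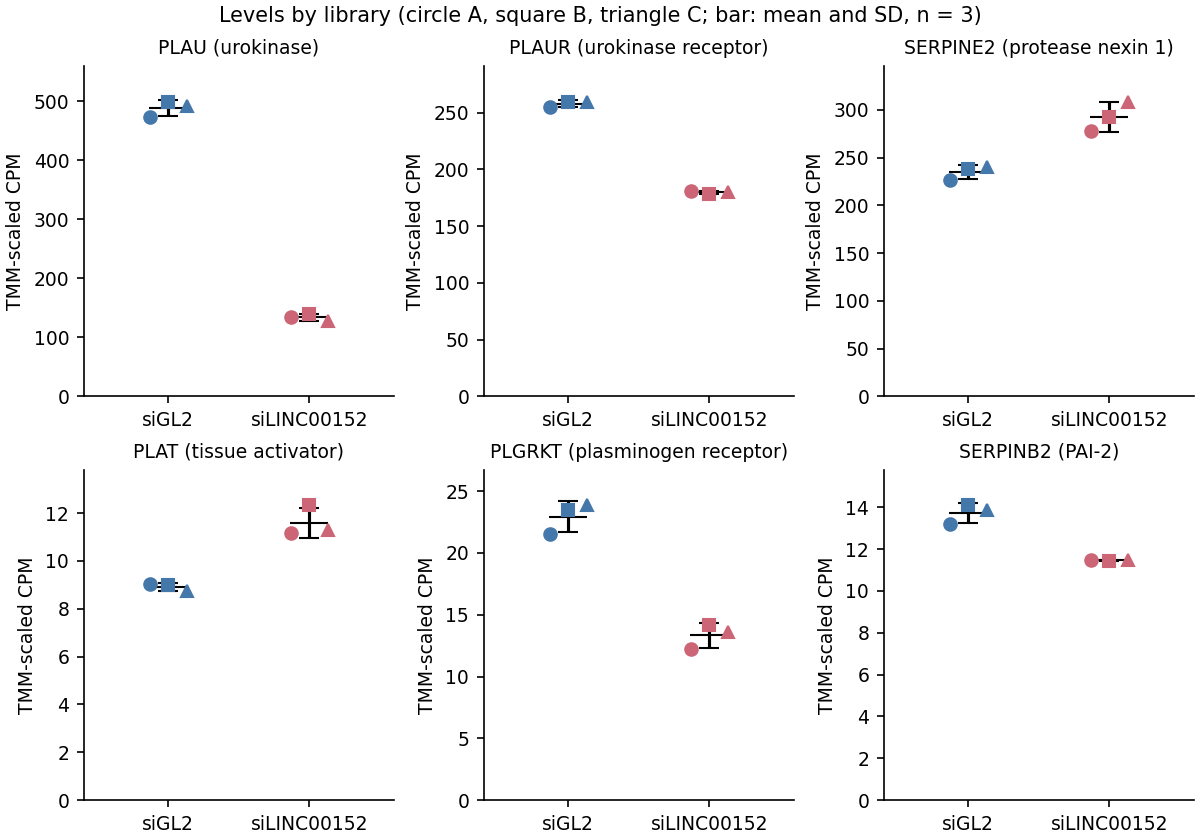
TMM-scaled CPM (vertical axes, from 0) of the 6 genes in each siGL2 library (blue) and siLINC00152 library (red). Symbols give the library letter and bars the mean and SD of 3 libraries; the groups do not overlap in any panel, and the gap is widest for PLAU, at 488 against 134 CPM.

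Per length, the most abundant of the 6 genes in control cells was PLAU. CPM per kilobase of merged exons was 182 ± 5.04 for PLAU, 117 ± 1.251 for PLAUR, 74.6 ± 2.39 for SERPINE2, 24.6 ± 1.32 for PLGRKT, 6.32 ± 0.221 for SERPINB2 and 3.23 ± 0.0585 for PLAT (SD, n = 3 siGL2 libraries). No neighbouring pair in this order overlapped between libraries. Among 13232 tested genes with a length, PLAU ranked 209th, PLAUR 393rd and SERPINE2 734th, so RNA of urokinase and its receptor was abundant in U87, whereas PLAT lay at rank 8641. After knockdown the order changed: SERPINE2 stood at 93.0 ± 4.94, PLAUR at 81.8 ± 0.664 and PLAU at 49.8 ± 2.37, above PLGRKT at 14.3 ± 1.08, SERPINB2 at 5.28 ± 0.0111 and PLAT at 4.21 ± 0.230. PLAU thus moved from the first to the third place of the 6. With the length of the longest transcript in place of merged exons, SERPINE2 (114 ± 6.06) and PLAUR (112 ± 0.907) overlapped after knockdown and the other positions were the same.

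**Figure D2:**
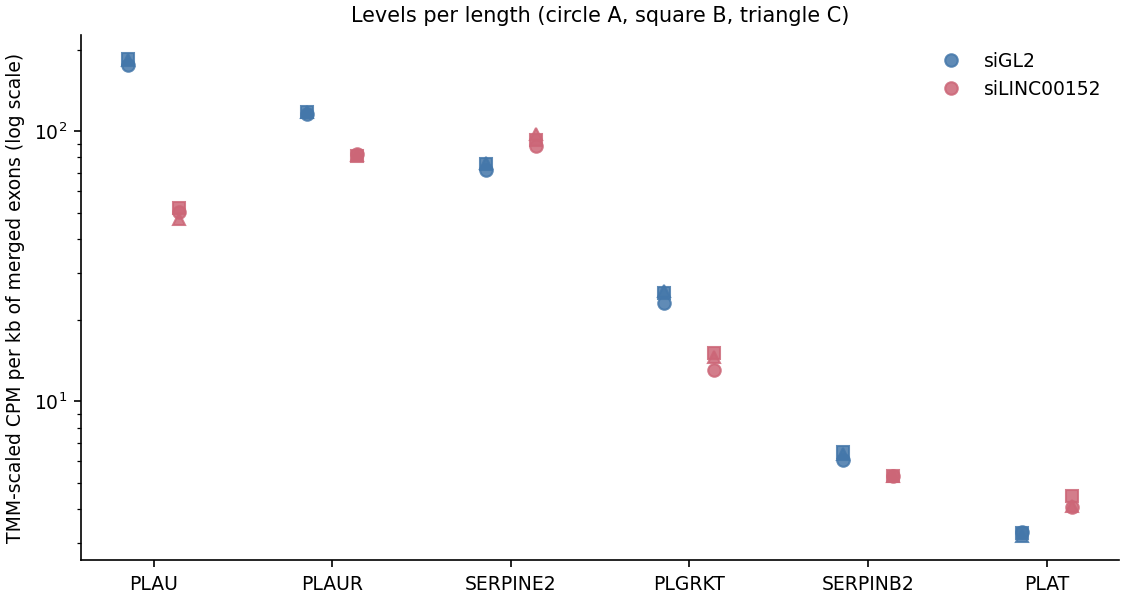
TMM-scaled CPM per kilobase of merged exons (vertical log axis) for the 6 genes, in each siGL2 library (blue) and siLINC00152 library (red). PLAU drops from 182 to 49.8 while PLAUR drops from 117 to 81.8, so that both end below SERPINE2 at 93.0.

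PLAU had the largest change of the 6. Its counts were 20526, 21577 and 23249 in siGL2 libraries A, B and C, and 5527, 5880 and 5420 in the knockdown libraries of the same letters, which is 473, 499 and 491 against 135, 140 and 127 CPM. The lowest control library thus held more than 3 times the CPM of the highest knockdown library. PLAU fell to 27.4% of its control level, with a log2 fold change of −1.87 ± 0.05 (SE; 95% confidence interval −1.96 to −1.77; edgeR adjusted p = 1.97e-17). Of the 9230 tested genes that averaged 10 CPM or more, 13 fell further. In bulk RNA, fewer cells expressing a gene and less RNA per cell cannot be told apart. PLAU lies on chromosome 10 from 73909177 to 73917497 (hg38, plus strand; ENSG00000122861.15), and 31.0% of its exonic bases are also exonic in C10orf55 on the opposite strand. C10orf55 had between 31 and 48 counts in each library, averaging 0.900 ± 0.160 CPM (SD, n = 3) in control cells against 0.972 ± 0.172 CPM, a difference that did not pass (log2 fold change 0.10 ± 0.21, SE; edgeR adjusted p = 0.680). Whether reads were counted by strand is not stated in the sources at hand.

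PLAT, the other activator, was scarce and went the other way. On chromosome 8 it spans 42175233 to 42207724 (hg38, minus strand; ENSG00000104368.17). The siGL2 libraries held 392, 388 and 413 PLAT counts and the siLINC00152 libraries 459, 518 and 481, or 9.03, 8.98 and 8.73 against 11.2, 12.3 and 11.3 CPM. Each knockdown library was above each control library. The rise was 1.30-fold, a log2 fold change of 0.38 ± 0.07 (SE; 95% confidence interval 0.23 to 0.53; edgeR adjusted p = 0.000106). A change of at least this size was common, since 62.55% of tested genes changed less than PLAT and the others more. Among genes of at least 10 CPM on average, 1507 rose further. Because PLAT began so low, PLAU still made up 92.0% to 92.5% of the summed activator level per length after knockdown, against 98.2% to 98.3% in the control libraries.

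Both receptors fell, each by less than PLAU. For PLAUR, the siGL2 libraries held 11062, 11212 and 12291 counts and the siLINC00152 libraries 7454, 7504 and 7672, or 255, 259 and 260 against 181, 179 and 180 CPM. The means were 258 ± 2.75 and 180 ± 1.46 CPM (SD, n = 3), and the spread within each group was small beside the gap. Its log2 fold change of −0.52 ± 0.04 (SE; 95% confidence interval −0.61 to −0.43; edgeR adjusted p = 8.66e-10) leaves PLAUR at 69.8% of its control level. PLAUR lies on chromosome 19 from 43646095 to 43670547 (hg38, minus strand; ENSG00000011422.11), and no exon of another gene overlaps it. PLAUR was just short of the 1.5-fold mark, and with library size alone in place of TMM its log2 fold change of −0.59 just passed it.

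PLGRKT, the receptor that tethers plasminogen through a carboxy-terminal lysine, had 935, 1013 and 1128 counts in the siGL2 libraries against 501, 594 and 581. In CPM these were 21.5, 23.4 and 23.8 against 12.2, 14.1 and 13.6. Again every knockdown library lay below every control library. PLGRKT fell to 58.1% of the control, with a log2 fold change of −0.78 ± 0.07 (SE; 95% confidence interval −0.93 to −0.64; edgeR adjusted p = 2.72e-09). It fell more than 88.0% of tested genes changed in either direction. Its gene lies on chromosome 9 from 5357973 to 5437878 (hg38, minus strand; ENSG00000107020.9). The confidence intervals of the fold changes of PLGRKT and PLAUR do not overlap.

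The serpin inhibitors of the set split. SERPINE2, the abundant one, rose from 226, 238 and 240 CPM in the siGL2 libraries to 277, 292 and 309 CPM in the siLINC00152 libraries. The rise was 1.246-fold, with a log2 fold change of 0.32 ± 0.05 (SE; 95% confidence interval 0.22 to 0.42; edgeR adjusted p = 5.76e-06). SERPINB2, which is found mainly inside cells, went from 13.2, 14.1 and 13.9 CPM to 11.5, 11.4 and 11.5 CPM, a log2 fold change of −0.26 ± 0.07 (SE; 95% confidence interval −0.40 to −0.12; edgeR adjusted p = 0.00177). Both changes were small beside that of PLAU and near the middle of all genes in size, with 54.96% of tested genes changing less than SERPINE2 and 46.5% less than SERPINB2. SERPINE2 lies on chromosome 2 from 223975112 to 224039319 (hg38, minus strand) and SERPINB2 on chromosome 18 from 63871692 to 63903890 (plus strand). Of the exonic bases of SERPINB2, 19.9% are shared with SERPINB10 on the same strand. SERPINB10 had at most 2 counts in a library.

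**Figure D3:**
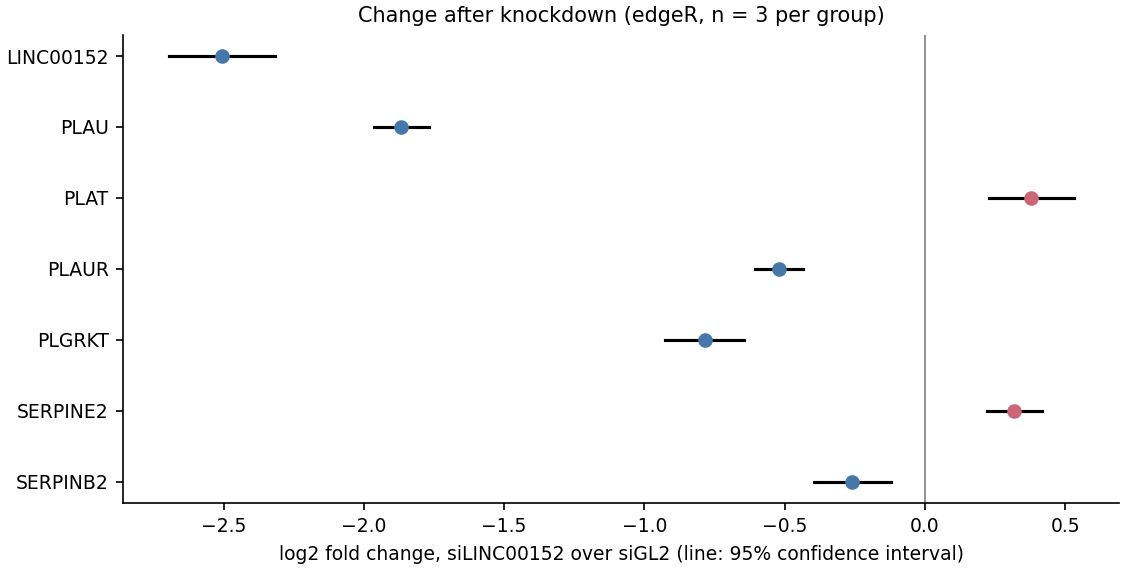
Log2 fold change of siLINC00152 over siGL2 (horizontal axis) with its 95% confidence interval for LINC00152 and the 6 genes, from 3 libraries per group. PLAU at −1.87 lies far from the rest of the set, which spans −0.78 (PLGRKT) to 0.38 (PLAT).

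Ratios of counts within a library need no scaling between libraries, and their change, unlike their level, does not depend on gene length. The siGL2 libraries had PLAU to SERPINE2 count ratios of 2.09, 2.10 and 2.04 and the siLINC00152 libraries 0.485, 0.479 and 0.412, a 4.54-fold drop. Against SERPINB2, which itself was lower, the drop was 3.05-fold, from between 35.4 and 35.9 to between 11.1 and 12.2. Each of these shifts was at least 1.61 log2 units, where the SD between libraries of a group was at most 0.13.

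PLAT behaved differently against the same inhibitors. Its ratio to SERPINE2 was 0.0399, 0.0377 and 0.0363 in the control and 0.0403, 0.0422 and 0.0366 after knockdown, so the groups overlapped and the log2 ratios differed by 0.06, with SDs of 0.07 and 0.10 (n = 3; exact permutation p = 0.40). The PLAT to SERPINB2 ratio rose 1.55-fold, from between 0.629 and 0.685 to between 0.973 and 1.08, without overlap. PLAU also dropped 2.54-fold relative to its own receptor PLAUR and 4.74-fold relative to PLAT. Of the 6 ratios compared, 5 did not overlap between groups and gave a two-sided exact permutation p of 0.10 (0.12 after Benjamini-Hochberg adjustment over the 6), which is the smallest p that 3 against 3 libraries allow.

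**Figure D4:**
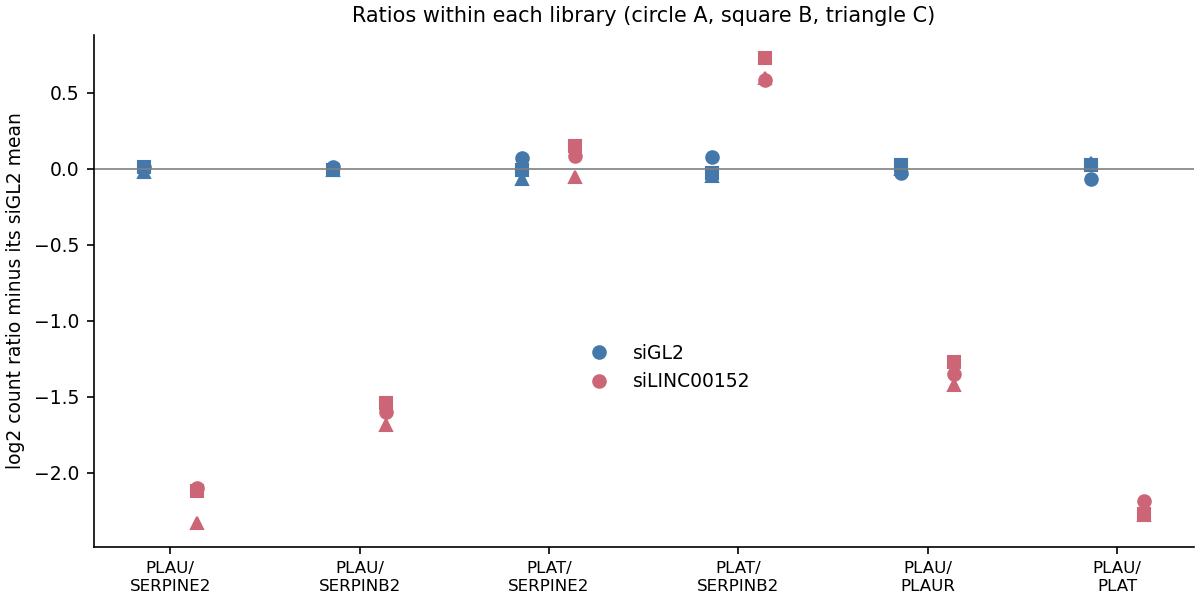
Log2 count ratios within each library, shown as the difference from the mean of the siGL2 libraries (vertical axis), for siGL2 (blue) and siLINC00152 (red). The 4 ratios with PLAU on top differ by −1.35 to −2.245 log2 units on average after knockdown, PLAT over SERPINE2 overlaps, and PLAT over SERPINB2 lies higher.

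Summed per length, PLAU and PLAT together over SERPINE2 and SERPINB2 gave 2.30, 2.30 and 2.25 for the siGL2 libraries against 0.580, 0.576 and 0.498 for the siLINC00152 libraries. Activator RNA thus exceeded the RNA of these inhibitors in every control library and was below it in every knockdown library. This sum was chosen after the values of the genes were seen, and it weighs RNA only, not protein or activity.

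The start regions of PLAU, PLAUR, PLGRKT and SERPINB2 are shown because these 4 genes fell and because AP-1 and PEA3 (an ETS factor) are textbook regulators of urokinase and its receptor. Each window is the 250 bases before a RefSeq start (GRCh38.p14), printed in the direction of transcription: chr10:73910882-73911131 (plus strand) for PLAU, the downstream of 2 listed starts, chr19:43670170-43670419 (minus strand) for PLAUR, chr9:5437926-5438175 (minus strand) for PLGRKT and chr18:63887455-63887704 (plus strand) for SERPINB2. Capitals mark the AP-1 motif TGANTCA and the PEA3 motif AGGAAG, each searched on both strands; in these windows they do not overlap.
PLAU: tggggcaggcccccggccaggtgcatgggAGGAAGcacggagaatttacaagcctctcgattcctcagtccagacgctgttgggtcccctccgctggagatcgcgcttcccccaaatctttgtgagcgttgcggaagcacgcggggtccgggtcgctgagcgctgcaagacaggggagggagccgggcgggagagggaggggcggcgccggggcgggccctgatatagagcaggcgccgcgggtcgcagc
PLAUR: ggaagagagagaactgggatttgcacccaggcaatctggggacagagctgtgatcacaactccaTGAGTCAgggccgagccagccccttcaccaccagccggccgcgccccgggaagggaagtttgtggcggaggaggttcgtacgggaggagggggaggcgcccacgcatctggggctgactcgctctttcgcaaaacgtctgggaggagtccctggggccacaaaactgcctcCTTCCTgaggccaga
PLGRKT: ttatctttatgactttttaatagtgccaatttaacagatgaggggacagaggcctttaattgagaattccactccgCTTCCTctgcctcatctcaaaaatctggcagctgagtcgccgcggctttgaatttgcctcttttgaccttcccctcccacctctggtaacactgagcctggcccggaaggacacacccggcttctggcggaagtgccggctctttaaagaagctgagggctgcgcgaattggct
SERPINB2: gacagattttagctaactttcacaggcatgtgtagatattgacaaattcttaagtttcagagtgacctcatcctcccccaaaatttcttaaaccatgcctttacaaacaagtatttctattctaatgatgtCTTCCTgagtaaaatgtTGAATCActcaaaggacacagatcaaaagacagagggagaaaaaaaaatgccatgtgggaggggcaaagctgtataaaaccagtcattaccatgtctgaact
The PLAUR window holds an AP-1 match that begins 186 bases before the start and a PEA3 match 15 bases before it. SERPINB2 has the same pair, at 102 and 119 bases, and the PLAU and PLGRKT windows each have a PEA3 match, at 221 and 174 bases, and no AP-1 match. The window before the upstream PLAU start holds neither motif, and neither do the 2 windows of SERPINE2, a gene that rose. RefSeq windows were searched for 5 of the 6 genes, 7 windows in all. PLAT, the other gene that rose, was left out of the search, and whether its window holds either motif was not tested. SERPINE2 is therefore the only gene that rose with a window here, and genes that fell and rose cannot be compared in this way. AP-1 was found in 2 of the 7 and PEA3 in 4, against 6.57% and 28.7% of all 35093 windows of this length. A match in letters is a description only, and a link between matches and the fall was not tested. The PLAU enhancer farther upstream lies outside this window.

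Log2 fold changes with their SE are given for the gene lists that follow. RNA of factors known to bind the PLAU regulatory region did not move in 1 direction with PLAU. Of 14 such genes, all tested, 8 were called higher and 3 lower, where 32.2% of all tested genes went each way; their median log2 fold change was 0.20. The AP-1 subunit gene JUND (0.73 ± 0.06, SE), the ETS factor gene ETS2 (0.65 ± 0.05) and ATF2, which pairs with JUN (0.39 ± 0.05), rose. FOSL2 (0.41 ± 0.06), JUNB (0.31 ± 0.05), RELA (0.22 ± 0.05) and SP1 (0.20 ± 0.05) rose too. The 2 genes listed from the PEA3 group of ETS factors went opposite ways. ETV4 rose by 0.20 ± 0.06, from 17.9 ± 0.485 to 20.5 ± 0.618 CPM (edgeR adjusted p = 0.00529). ETV5 fell by 0.65 ± 0.05 on the log2 scale, from 103 ± 0.837 to 65.7 ± 0.867 CPM (SD, n = 3). The other genes that fell were FOS (−0.80 ± 0.14) and FOSL1, a FOS relative (−0.15 ± 0.04). JUN stood at 0.07 ± 0.04, ETS1 at 0.06 ± 0.05 and NFKB1 at −0.10 ± 0.06. The edgeR adjusted p was 0.00551 or lower for the 3 that fell.

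**Figure D5:**
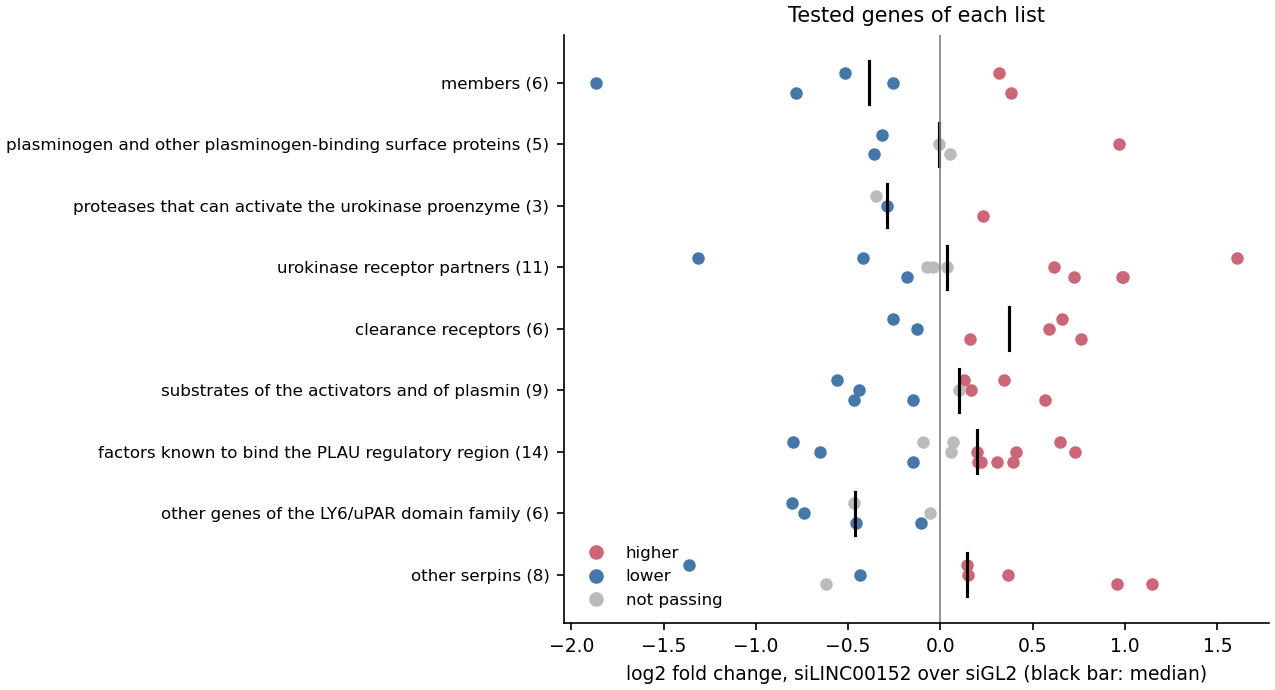
Log2 fold change (horizontal axis) of every tested gene in the 6-gene set and in each list around it, with the number tested in brackets, coloured by whether it was higher, lower or did not pass at an edgeR adjusted p under 0.05. Black bars are medians, which range from −0.46 in the LY6/uPAR family to 0.37 in the clearance receptors.

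Plasminogen itself had no count in any of the 6 libraries, which allows up to 3 counts, or 0.0634 to 0.0730 CPM, so the substrate of these activators was not detectable as RNA in U87. Among 5 tested genes for plasminogen-binding surface proteins, 1 rose and 2 fell, around a median log2 fold change of −0.01. That is near the 64.3% of all tested genes that passed. S100A10, the partner of annexin A2 that binds plasminogen, went from a mean of 430 ± 31.4 CPM to one of 840 ± 52.3 (SD, n = 3), a 1.95-fold rise (log2 fold change 0.97 ± 0.06, SE; edgeR adjusted p = 8.44e-12). ANXA2 (0.05 ± 0.04) and the enolase gene ENO1 (−0.01 ± 0.04) did not pass. HMGB1 fell by 0.32 ± 0.05. KRT8 had a value of −0.36 ± 0.13, which did not pass without siGL2 replicate A (edgeR adjusted p = 0.0520) or without siLINC00152 replicate C (edgeR adjusted p = 0.121).

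Among 6 tested genes of the clearance receptor list, 4 rose and 2 fell, the median log2 fold change being 0.37. The list joins receptors that clear urokinase bound to its inhibitors, the receptor chaperone LRPAP1, and IGF2R and MRC2, which are listed for their contact with PLAUR protein. Over all tested genes 32.2% rose and 32.2% fell, and without LRPAP1, whose call depends on the scaling, 3 of 5 rose. IGF2R, the mannose 6-phosphate receptor that binds PLAUR protein, rose by 0.76 ± 0.06 (SE) and VLDLR, an endocytic receptor for protease and serpin complexes, by 0.66 ± 0.04. LRP1, the main clearance receptor of these complexes, averaged 1273.3 ± 225.6 CPM in control cells against 1910.7 ± 122.5 CPM (SD, n = 3; log2 fold change 0.59 ± 0.13, SE; edgeR adjusted p = 0.0101). Its chaperone gene LRPAP1 (0.16 ± 0.05) passed with TMM but not with library size alone (0.10; edgeR adjusted p = 0.0806). LRP8, a related receptor, fell by 0.26 ± 0.05, and MRC2, a collagen receptor that forms complexes with PLAUR, by 0.13 ± 0.05. For MRC2 the CPM values of the groups overlapped (edgeR adjusted p = 0.0367). Antisense exons cover 10.35% of LRP8 exonic bases and 12.6% of those of MRC2.

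Partners of the urokinase receptor at the membrane went both ways. Of 11 tested genes, 5 were called higher and 3 lower, around a median log2 fold change of 0.03, beside 64.3% called among all tested genes. ITGA5, a subunit of the fibronectin receptor, rose by 1.61 ± 0.05 (SE), ITGAV, a subunit of vitronectin receptors, by 0.99 ± 0.05 and CAV1, caveolin 1, by 0.98 ± 0.04. Of the listed genes that pair with ITGAV, ITGB5 rose by 0.72 ± 0.04 (edgeR adjusted p = 8.76e-12) and ITGB3 fell by 0.42 ± 0.06. For ITGB3, 51.6% of the exonic bases are shared with another gene on the same strand. PDGFRB rose by 0.615 ± 0.055, and IL6ST fell by 0.18 ± 0.05. FPR1, a chemotactic receptor that cleaved PLAUR protein can engage, fell by 1.32 ± 0.06 (edgeR adjusted p = 1.05e-13), its mean going from 54.0 ± 3.92 to 21.7 ± 0.662 CPM (SD, n = 3). ITGB1, ITGA3 and EGFR did not pass, and VTN, which encodes vitronectin, another ligand of PLAUR protein, was too scarce to test, with means of 0.159 and 0.199 CPM.

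The LY6/uPAR family shares the 3-finger fold of the urokinase receptor. Beside PLAUR, 6 of 11 such genes were tested, of which 4 fell, beside 32.2% of all tested genes, and the median log2 fold change was −0.46. PINLYP fell by 0.80 ± 0.07 (SE), LYPD6 by 0.74 ± 0.07 and LYPD1 by 0.46 ± 0.05 (edgeR adjusted p = 3.25e-07 or lower). Genes of the opposite strand overlap 48.9% of the exonic bases of LYPD1. CD59, the membrane inhibitor of complement, fell by 0.10 ± 0.04 (edgeR adjusted p = 0.0304), and leaving out any of 5 of the 6 libraries lost that call, at an edgeR adjusted p of 0.0513 to 0.105. LY6K (−0.47 ± 0.27) and LY6E (−0.06 ± 0.37) did not pass. Antisense exons cover 71.0% of the exonic bases of LY6K.

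Proteases that can activate the urokinase proenzyme were mostly scarce, and only 3 of 8 were tested. CTSB, cathepsin B, rose by 0.23 ± 0.04 (SE) to 1019.5 ± 36.8 CPM (SD, n = 3), while CTSL, cathepsin L, fell by 0.29 ± 0.04 to 312 ± 5.57 CPM. F12 (−0.35 ± 0.27) did not pass. ST14, HPN, KLKB1, KLK2 and TMPRSS4 lay between 0 and 0.295 CPM in both group means.

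Among substrates of the activators and of plasmin, 9 of 15 were tested, of which 4 rose and 4 fell (median log2 fold change 0.10), where 64.3% of all tested genes were called. HGF, whose precursor urokinase can cut, fell by 0.56 ± 0.08 (SE), and the neurotrophin gene BDNF, whose precursor plasmin cuts, fell by 0.47 ± 0.06. The stromelysin gene MMP3 rose by 0.35 ± 0.07 and MST1, an HGF relative, by 0.56 ± 0.14, though 13.7% of the 75-base stretches of MST1 also occur in its copies. MMP1 averaged 3.25 ± 0.575 CPM in control cells and 2.40 ± 0.435 CPM in knockdown cells, with overlap (SD, n = 3; log2 fold change −0.44 ± 0.15, SE). PDGFC (0.10 ± 0.05), which tissue plasminogen activator can activate, did not pass.

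Of 34 other serpin genes examined, 10 had no count in any library and 8 were tested. Of these, 5 rose and 2 fell, where 32.2% of all tested genes went each way, and the median log2 fold change was 0.15. SERPINH1, the collagen chaperone HSP47, which inhibits no protease, rose by 1.15 ± 0.05 (SE), and SERPINB7 by 0.96 ± 0.06. SERPIND1, heparin cofactor II, a thrombin inhibitor, fell by 1.36 ± 0.09 (edgeR adjusted p = 2.89e-11), its mean going from 13.75 ± 1.11 to 5.36 ± 0.561 CPM (SD, n = 3). SERPINB8 fell by 0.43 ± 0.05. SERPINI1, neuroserpin, the inhibitor of tissue plasminogen activator in brain, was scarce and rose by 0.37 ± 0.11, to 3.36 ± 0.136 CPM.

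By the root mean square difference of log2(CPM + 0.5), centred on the siGL2 mean, over the 6 libraries and 9229 other genes of at least 10 CPM, the genes nearest to PLAU were TK2 (0.07), KIF7 (0.09) and TGM2 (0.09). TGM2, a matrix-crosslinking transglutaminase, went from 256 ± 6.60 to 75.4 ± 2.58 CPM (SD, n = 3). The measure mostly reads the fall between groups, which all of these genes share. When genes down to 1 CPM were searched, 1 of these 3 was still among the nearest, as were 2 of 3 for PLAT and for SERPINE2 and all 3 for PLAUR, PLGRKT and SERPINB2. Antisense exons cover 21.9% of the exonic bases of TK2 and 11.8% of those of KIF7. Nearest to PLAUR were TIMM21 (0.01), RUVBL2 (0.01) and PARP1 (0.02), and nearest to PLGRKT were KIAA0101 (0.03), METTL7A (0.03) and PALMD (0.03). The same search gave SH3RF1 (0.02), DPP8 (0.03) and COX15 (0.03) for PLAT, PPP1R12A, SRPK2 and THAP6 (each 0.02) for SERPINE2, and TADA3, PSMC3 and BUD13 (each 0.01) for SERPINB2. Other genes of the same strand share 28.8% of the exonic bases of KIAA0101 and 25.6% of those of COX15. Antisense exons cover 19.7% of those of TADA3.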

How the data were processed

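Polyadenylated RNA of 6 U87 libraries was sequenced as paired reads of 75 bases from a strand-directional kit, per the labels' protocols. The authors deposited whole-number read counts by gene symbol, each library in a table of its own. The submitters' processing notes name bcl2fastq, HISAT, HTSeq, DESeq and the hg38 build but no versions. Which annotation, strand setting and treatment of multiply matching reads were used was not stated in the sources at hand.

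All 27192 genes entered filterByExpr (minimum count 10, minimum total 15), which left 14078. Counts were scaled by TMM (factors 0.9745 to 1.025) and compared by edgeR's robust quasi-likelihood test (edgeR 4.0.16, limma 3.58.1, R 4.3.3), without covariates, with Benjamini-Hochberg adjustment over all tested genes and a threshold of 0.05. The SE is the log2 fold change divided by the square root of F. Ratios were tested by two-sided exact permutation (scipy 1.17.1). DESeq2 1.42.0 was an alternative. In a simulation of this comparison over 13977 genes, the edgeR step recovered 64%, 84%, 94% and 100% of 1.25-, 1.5-, 2- and 4-fold changes and called 17 of 13778 unchanged genes. Only 50 genes were changed at each size there, whereas 64.3% of tested genes were called in the data. The simulated rates may therefore not carry over to the data. Gene models are GENCODE 29 (GRCh38, which hg38 names), and LINC00152 was matched there as CYTOR.

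The 6 genes and the lists were chosen with earlier results of these data known. Named are the 6 genes, LINC00152, C10orf55, the up to 4 genes of each list with the smallest p past the threshold, and the 3 genes nearest each of the 6; other list members were named after their values were seen. Replicate pairs within a group differed by more than sampling noise, with a chi-square per degree of freedom of 2.91 to 13.7. The siGL2 pairs with library A gave 10.9 and 13.7, siGL2 B with C gave 2.91, and the knockdown pairs gave 3.07 to 5.79. The edgeR confidence intervals rest on the spread between libraries, which may be technical, while limits from 0 counts cover counting error only. Alternatives were other scalings, DESeq2, no filter, the letter as a block and leaving out each library. One further gene and the results that need it are not reported here.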

Additional observations from a re-analysis of the deposited data

How the results depend on the processing

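The fall or rise of each of the 6 genes kept its direction and passed under all 11 alternatives to the edgeR test. Over these, the log2 fold change lay between −1.93 and −1.83 for PLAU, −0.85 and −0.72 for PLGRKT, −0.59 and −0.51 for PLAUR, −0.33 and −0.24 for SERPINB2, 0.25 and 0.36 for SERPINE2 and 0.31 and 0.41 for PLAT. The number of genes past the threshold lay between 8294 and 9336. With library size alone, 3755 genes were higher and 5389 lower. C10orf55, which did not pass in any fit, lay between −0.034 and 0.247 when 1 library was left out, on the other side of 0 without siGL2 replicate B. All 6 ratio differences kept their direction under 8 alternatives. With a replicate block on the library letter, 9155 genes passed, against 9058 without it, and no call on the 6 genes changed. Deviations of same-lettered libraries from their group means correlated at 0.109, −0.019 and 0.099 over 14023 genes, which falls short of showing that the letters pair the libraries, although the A and C pairs were the highest of the 9 cross-group pairs. The summed activator to inhibitor ratio dropped 4.14-fold, and 4.16-fold with the longest transcript, an alternative chosen after the data were seen.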

Other observations

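Of 12 tested genes next to the 6 genes on their chromosomes, some moved the same way as their neighbour and others the opposite way or did not pass. Beside PLAU, which fell by 1.87 on the log2 scale, the kinase gene CAMK2G, 34.6 kb away, fell by 0.50 ± 0.05 (SE), whereas the vinculin gene VCL, 77.7 kb away on the other side, rose by 0.51 ± 0.05 (edgeR adjusted p = 4.80e-08 and 9.11e-09). Beside PLAUR, CADM4 (0.29 ± 0.13) did not pass and SMG9 rose by 0.13 ± 0.05. Beside PLGRKT, CD274, which encodes the checkpoint ligand PD-L1, 12.6 kb away, fell by 0.39 ± 0.08 and JAK2 (0.10 ± 0.06) did not pass. Neither tested neighbour of SERPINE2 passed, with MRPL44 at −0.10 ± 0.06 and CUL3 at 0.03 ± 0.05. Beside SERPINB2, the serpin gene SERPINB7 rose by 0.96 ± 0.06, and HMSD fell by 0.65 ± 0.12 (edgeR adjusted p = 9.72e-12 and 8.30e-05). AP3M2, 3.56 kb from PLAT, fell by 0.99 ± 0.05, while IKBKB (0.06 ± 0.05) on the other side did not pass. These neighbours were looked up after the values of the 6 genes were seen, and exons of the opposite strand overlap 11.1% of VCL and 12.9% of MRPL44. Of the exonic bases of HMSD, 12.7% are shared with SERPINB8 on the same strand.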
